A study of Homo sapiens with 6 samples.

Results

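The epidermal differentiation complex is a run of genes on human chromosome 1 that code for the proteins of the outer skin layers and their calcium-binding partners. Members were taken by symbol. They are the genes named SPRR, LCE or S100A followed by a number, together with IVL, FLG, FLG2, RPTN, CRNN, TCHH, TCHHL1, HRNR, SMCP, PGLYRP3 and PGLYRP4, wherever a probe set carried that symbol alone. Of 18377 genes measured in this way, 53 were members: 17 S100A genes, 17 LCE genes, 9 SPRR genes, 6 genes of the fused S100 type (FLG, FLG2, RPTN, CRNN, TCHH and TCHHL1) and 4 others (IVL, SMCP, PGLYRP3 and PGLYRP4). HRNR shares its probe set with RPTN and is not among them.

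In stratified epithelium the SPRR (small proline-rich), LCE (late cornified envelope) and IVL (involucrin) proteins are cross-linked by transglutaminases into the cornified envelope, a protein shell beneath the membrane of dying keratinocytes. The fused S100 proteins, of which FLG (filaggrin) is the best known, join calcium-binding ends to long repeats and bundle or surround keratin filaments. The S100A proteins are small calcium sensors: some act inside cells with annexins, and others are released as alarm signals or antimicrobial proteins.

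RNA came from MCF10A-HER2/3 cells, a derivative of the non-tumorigenic human mammary epithelial line MCF10A, kept for 15 days in 3D culture. The parental MCF10A line forms hollow spheres called acini in such culture, and the shape formed by the HER2/3 cells was not assessed here. The cells carried a doxycycline-inducible lentiviral vector that expressed a control miR (CTRL miR), SHP2 miR1 or SHP2 miR2, the latter 2 directed at SHP2, the tyrosine phosphatase encoded by PTPN11. All groups received doxycycline from the day after seeding, and the same medium with EGF, insulin, cholera toxin, hydrocortisone and horse serum, so the control differs from the others by the miR alone as far as the labels go. Each of the 3 groups had 2 Affymetrix HuGene-1_0-st-v1 arrays. The labels do not say that replicates were separate cultures, so p-values measure only how far these arrays, possibly technical repeats, spread, and they do not say whether the transduced cells were a pool or a clone. All values are deposited probe set values on a log2 scale, whose base was inferred from their range. Differences are in log2 units, so that 1 unit is a 2-fold change, with the SE and the Benjamini-Hochberg adjusted p of a limma fit over all 18377 genes and a threshold of 0.05.

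As a check of the labels, PTPN11 read 7.96 and 8.44 in control, 6.04 and 5.71 under SHP2 miR1, and 6.90 and 7.28 under SHP2 miR2, so all 4 SHP2 miR arrays lay below both controls. It fell by 1.72 on average (SE 0.19, limma adjusted p = 0.00184). The fall was 2.32 with SHP2 miR1 (adjusted p = 0.000548) and 1.11 with SHP2 miR2, where PTPN11 itself missed the threshold (adjusted p = 0.0813). SHP2 miR2 minus SHP2 miR1 was 1.21 (adjusted p = 0.0645). Of 10 epithelial markers, 8 were measured and 0 were dim, that is, at or below the 40th percentile of all probe sets (4.76). Averaged over both SHP2 miRs, 1 of the 8 rose and 1 fell. These were the basal keratin KRT14, by 1.10 (limma adjusted p = 0.00440), and LAMB3, by 1.07 (adjusted p = 0.00314). Array medians lay between 5.23 and 5.35, and replicates correlated at 0.985 to 0.986 across genes.

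Most members did not differ between the groups by more than the replicate spread allowed the test to call. Averaged over both SHP2 miRs, SPRR1B, LCE1C and S100A9 rose, and 0 members fell (3 of 53, or 5.66%, by limma). Over all genes 4.2% passed, with 1.53% higher and 2.67% lower, so the share of members called lay near the background. After centring on array medians 3 members rose and 1 fell, and after quantile normalization 4 rose and 0 fell. With a mean-variance trend 5 rose and 4 fell (LCE3D, S100A2, S100A10 and S100A16), and with dim genes left out 4 rose and 1 fell (LCE3D). At an unadjusted p under 0.05 there were 11 members (20.8%, against 20.9%). The median difference was 0.15 over the members and 0.02 over all genes, and 34 members lay above 0 and 19 below it. All 4 SHP2 miR arrays exceeded both controls for 10 members (18.9%, against 12.6% of all genes) and fell below both for 4 (7.55%, against 13.6%). The RNA is from whole cultures, in which fewer cells of a type and less RNA per cell cannot be told apart.

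**Figure D1:**
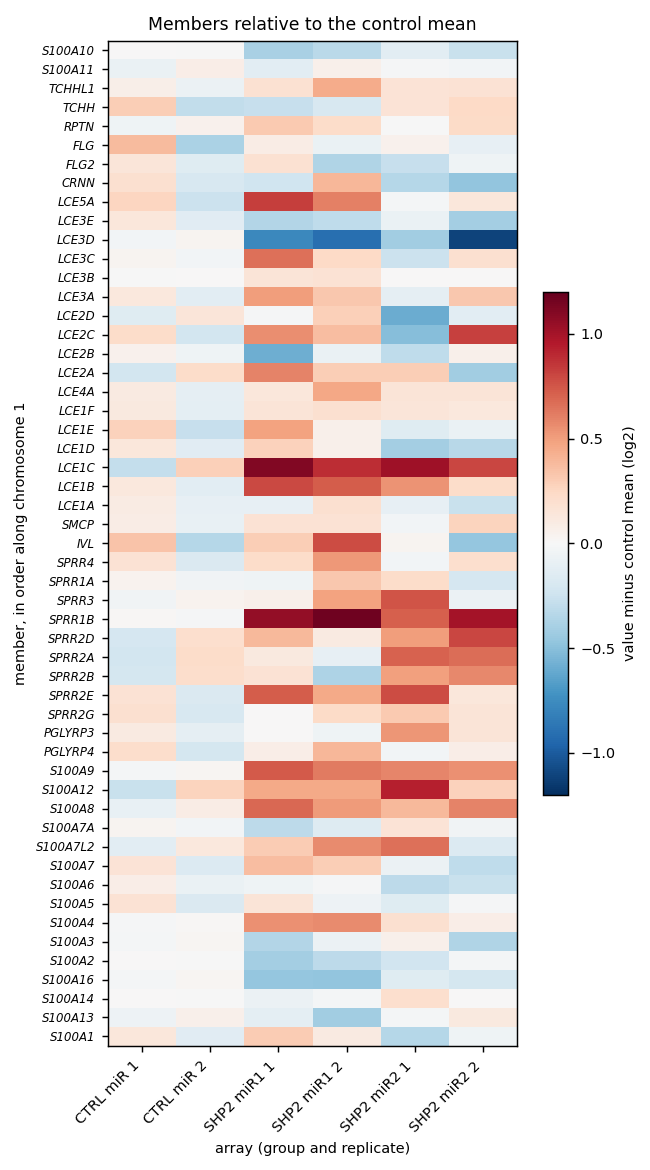
Each cell is a member's value on 1 array minus its control mean (log2, colour scale), with the 53 members from top to bottom in their order along chromosome 1 and the 6 arrays in columns. SPRR1B, LCE1C, S100A8 and S100A9 are red on all 4 SHP2 miR arrays, LCE3D is blue on all of them, and most other members stay pale or mixed.

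The promoters of the 3 members that rose are shown because these genes were called although most of their neighbours were not. Each runs from 250 bases before to 50 bases after the gene start (RefSeq, GRCh38.p14), 5′ to 3′, with capitals for matches to TGANTCA, the letters bound by AP-1 factors, or to TATAAA, the TATA box.
SPRR1B: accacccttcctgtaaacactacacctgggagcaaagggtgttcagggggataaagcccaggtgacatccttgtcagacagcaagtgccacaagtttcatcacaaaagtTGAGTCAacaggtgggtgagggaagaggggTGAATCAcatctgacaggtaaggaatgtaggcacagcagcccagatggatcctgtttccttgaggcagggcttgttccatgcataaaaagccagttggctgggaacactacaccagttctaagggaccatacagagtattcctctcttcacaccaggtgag
LCE1C: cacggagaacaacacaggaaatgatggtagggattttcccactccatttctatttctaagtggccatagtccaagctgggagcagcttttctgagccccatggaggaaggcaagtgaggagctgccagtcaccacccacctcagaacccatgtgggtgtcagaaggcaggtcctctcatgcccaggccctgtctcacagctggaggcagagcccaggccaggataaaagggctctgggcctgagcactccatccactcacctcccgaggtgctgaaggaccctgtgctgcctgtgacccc
S100A9: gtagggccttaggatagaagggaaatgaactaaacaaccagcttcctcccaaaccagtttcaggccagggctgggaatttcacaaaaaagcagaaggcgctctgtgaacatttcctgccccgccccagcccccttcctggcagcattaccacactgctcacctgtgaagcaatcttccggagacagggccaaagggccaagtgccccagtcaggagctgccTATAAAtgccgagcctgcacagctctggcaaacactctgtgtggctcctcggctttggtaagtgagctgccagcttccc
The windows are chr1:153030953-153031252 (plus strand) for SPRR1B, chr1:152806602-152806901 (minus strand) for LCE1C and chr1:153357604-153357903 (plus strand) for S100A9. In SPRR1B, TGAGTCA stands at bases 110 to 116 and TGAATCA at bases 140 to 146 of the window. The LCE1C window holds neither motif, and that of S100A9 has TATAAA at bases 222 to 227.

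Promoters of 49 members were found, and 4 had no entry. TGANTCA occurred in 15 of the 49 (30.6%) on either strand, against 7.76% of 27305 promoters of the same length. It was in 5 of 7 SPRR promoters, 3 of 16 S100A promoters and 0 of 16 LCE promoters. It was also in 7 of the 10 promoters of the fused S100 genes, IVL, SMCP, PGLYRP3 and PGLYRP4. TATAAA, counted on either strand and at any position, occurred in 24 of the 49 (49.0%) against 11.95% of all. It was in 6 of 7 SPRR, 6 of 16 S100A, 7 of 16 LCE and 5 of the 10 other promoters. The matches of LCE1E (bases 31 to 36) and S100A8 (bases 125 to 130) lie further from the gene start than that of S100A9. A TATAAA match therefore need not be a TATA box. The C/EBP letters TTGCNNAA were in 11 (22.4%, against 10.6%) and the ETS letters GGAAGT in 17 (34.7%, against 23.2%). No overlap between motifs was removed. SPRR1A, which was not called, also has TGAGTCA (bases 143 to 149) and TATAAA (bases 222 to 227), whereas the SPRR1B window holds TGANTCA and no TATAAA. A match describes the sequence and was not tested for binding.

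SPRR1B, a cross-linked envelope protein of stressed and squamous epithelium, had the smallest p of the members. It read 6.54 and 6.52 in control, 7.59 and 7.70 under SHP2 miR1, and 7.25 and 7.53 under SHP2 miR2. The control arrays were nearly equal and every SHP2 miR array lay above both. It rose by 0.99 on average (SE 0.14, 1.98-fold, limma adjusted p = 0.00539), with 1.11 for SHP2 miR1 (SE 0.16, adjusted p = 0.00455). For SHP2 miR2 it was 0.86 (adjusted p = 0.0654). The average call was lost without control replicate 1 (adjusted p = 0.0567) or 2 (0.0868), and that for SHP2 miR1 without control replicate 2 (0.0513).

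The other SPRR genes were not called. SPRR1A, the nearest relative of SPRR1B, read 5.77 and 5.69 in control, 5.67 and 6.05 under SHP2 miR1, and 5.95 and 5.52 under SHP2 miR2. Its groups overlapped, and its average difference of 0.07 had a 95% interval of -0.31 to 0.45. SPRR3, an envelope protein of oral and oesophageal epithelium, read 3.68 and 3.77 in control, 3.79 and 4.21 under SHP2 miR1, and 4.48 and 3.66 under SHP2 miR2, with 1 SHP2 miR2 array above and 1 below both controls (0.31, adjusted p = 0.474). SPRR3 was dim, as were 5 of the 9 SPRR genes in all. All 9 SPRR differences were above 0 (0.07 to 0.99, median 0.31), against 52.8% of all genes, and all 9 also stayed above 0 under quantile normalization and centring on array medians. With single arrays left out, SPRR1A and SPRR2G turned below 0, to -0.04 and -0.02 at the lowest.

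SPRR2A separated the SHP2 miRs by its values. It read 3.79 and 4.23 in control, 4.13 and 3.92 under SHP2 miR1, and 4.72 and 4.68 under SHP2 miR2. Both SHP2 miR2 arrays lay above the other 4, yet neither the difference from control (0.69, adjusted p = 0.189) nor that between the SHP2 miRs (0.68, 95% interval 0.27 to 1.09, adjusted p = 0.138) passed. SPRR2B and SPRR2D, picked after their values were seen, had the same order, with both SHP2 miR2 arrays above the other 4 and differences from control of 0.53 and 0.65 for SHP2 miR2. SPRR2A, SPRR2B and SPRR2D are all dim. The other SPRR2 genes measured, SPRR2E and SPRR2G, did not have this order. Their SHP2 miR2 arrays overlapped both other groups, with -0.13 and 0.12 for SHP2 miR2 minus SHP2 miR1. For SPRR2E, also dim, the SHP2 miR1 arrays (3.32 and 3.04) lay above both controls (2.76 and 2.42), at 0.59 (limma adjusted p = 0.139). The SPRR2 genes have near-identical sequences and could share signal between probe sets, so these members are not independent and their separate values are uncertain.

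**Figure D2:**
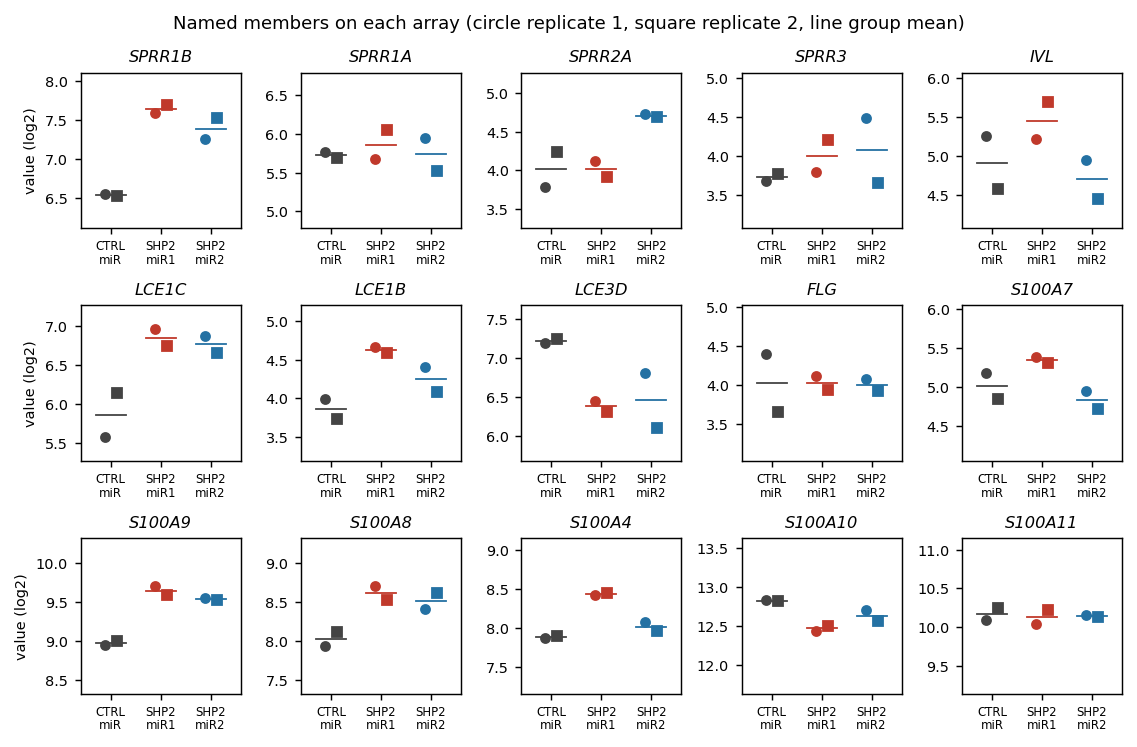
Points give the log2 value of 15 named members on each array (circle replicate 1, square replicate 2) and lines the group means. SPRR1B runs from 6.52 in control to 7.70 with SHP2 miR1, LCE3D from 7.25 down to 6.10 with SHP2 miR2, and SPRR1A, FLG and S100A11 overlap between groups.

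Among the LCE genes, 1 rose and 0 fell in the average, and the family's differences had both signs. LCE1C, a late envelope protein, read 5.57 and 6.15 in control, 6.97 and 6.74 under SHP2 miR1, and 6.88 and 6.66 under SHP2 miR2. All SHP2 miR arrays were above both controls, which themselves differed by more than any other pair of replicates of this gene. LCE1C rose by 0.95 (SE 0.18, 1.93-fold, limma adjusted p = 0.0224), and 1.99-fold with SHP2 miR1 (adjusted p = 0.0235). Its average call was lost without control replicate 1 (difference 0.66, adjusted p = 0.114), SHP2 miR1 replicate 1 (0.0520) or SHP2 miR2 replicate 1 (0.0736). Its SHP2 miR1 call was lost when control replicate 1 or either SHP2 miR1 array was left out (adjusted p of 0.0586 to 0.119).

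LCE3D, of the LCE3 group that is induced in injured and psoriatic skin, differed in the opposite direction. It read 7.19 and 7.25 in control, 6.44 and 6.31 under SHP2 miR1, and 6.80 and 6.10 under SHP2 miR2. No SHP2 miR array reached a control. With SHP2 miR1 it fell by 0.84 (SE 0.22, limma adjusted p = 0.0471), a call lost under quantile normalization (0.0692) and whichever control or SHP2 miR1 array was left out (0.106 to 0.238). The average difference was -0.80 (adjusted p = 0.0505, which missed the threshold), and -0.76 with SHP2 miR2 (adjusted p = 0.229). With all 6 arrays kept, that average passed with a mean-variance trend, dim genes left out, median centring, averaged probe sets or a replicate block. Without SHP2 miR2 replicate 1, which read 6.80, the average difference was -0.98.

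LCE1B read 3.99 and 3.74 in control, 4.66 and 4.59 under SHP2 miR1, and 4.40 and 4.09 under SHP2 miR2. It is dim, and the groups did not overlap. It rose by 0.76 with SHP2 miR1 (SE 0.17, limma adjusted p = 0.0305), a call lost under quantile normalization (0.0509) and when control replicate 2 or either SHP2 miR1 array was left out (up to 0.204). Its average difference of 0.57 did not pass (adjusted p = 0.0690). Of the 17 LCE genes, 3 were dim, and the average differences ran from -0.80 to 0.95 with a median of 0.15. The LCE genes also resemble one another closely, so their separate values are uncertain in the same way.

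Involucrin (IVL), an early envelope scaffold, was not called. It read 5.25 and 4.57 in control, 5.21 and 5.69 under SHP2 miR1, and 4.94 and 4.45 under SHP2 miR2. The control replicates spread over most of that range. Filaggrin (FLG), whose breakdown products hydrate the outer skin, read 4.40 and 3.64 in control, 4.11 and 3.94 under SHP2 miR1, and 4.08 and 3.92 under SHP2 miR2. Its arrays overlapped at dim values, with an average difference of -0.01 and a 95% interval of -0.46 to 0.45. Of the 6 fused S100 genes, 5 were dim, 0 passed in any comparison by limma, and 0 reached an unadjusted p under 0.05. SMCP, PGLYRP3 and PGLYRP4 were dim as well, with average differences of 0.13 to 0.16.

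Among the S100A genes, 1 rose in the average and 0 fell. S100A9, which pairs with S100A8 to form calprotectin, a metal-binding antimicrobial complex, read 8.95 and 8.998 in control, 9.70 and 9.59 under SHP2 miR1, and 9.56 and 9.52 under SHP2 miR2. Replicates lay close and all SHP2 miR arrays were above both controls. S100A9 rose by 0.62 (SE 0.13, 1.54-fold, limma adjusted p = 0.0276), and by 0.68 with SHP2 miR1 (adjusted p = 0.0253). The average call was lost whichever 1 of the 6 arrays was left out, while the difference stayed between 0.59 and 0.65. The SHP2 miR1 call was lost whichever control or SHP2 miR1 array was left out, with differences of 0.62 to 0.73.

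S100A8 read 7.93 and 8.11 in control, 8.71 and 8.53 under SHP2 miR1, and 8.41 and 8.62 under SHP2 miR2. All SHP2 miR arrays were above both controls, as for its partner, but the average difference of 0.55 did not pass (SE 0.14, 95% interval 0.23 to 0.86, limma adjusted p = 0.0660). It passed with a mean-variance trend, with dim genes left out and under quantile normalization. S100A12, a further secreted alarm protein, was dim, with 0.53 (adjusted p = 0.200). S100A8, S100A9 and S100A12 are also abundant in myeloid cells. Of 9 myeloid markers, 8 were measured and 5 were dim, among them PTPRC, the leukocyte antigen CD45, at 3.18 to 3.53. The mean of the measured myeloid markers was 5.23 to 5.25 in control, 5.29 to 5.43 with SHP2 miR1 and 5.09 to 5.41 with SHP2 miR2. CD14 was 6.24 and 6.59 in control and 6.87 to 7.73 on the SHP2 miR arrays. CD68, the other myeloid marker called with SHP2 miR1, was 9.53 and 9.47 in control and 8.69 to 9.45 on the SHP2 miR arrays. In limma 0 of the 8 passed in the average, and with SHP2 miR1 CD14 rose by 1.08 (adjusted p = 0.0366) and CD68 fell by 0.71 (adjusted p = 0.0272). The part of these markers in the S100A9 difference was not tested.

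S100A7 (psoriasin), an antimicrobial S100 of inflamed skin, read 5.18 and 4.85 in control, 5.39 and 5.31 under SHP2 miR1, and 4.95 and 4.71 under SHP2 miR2. SHP2 miR1 arrays lay highest and those of SHP2 miR2 overlapped the control (average 0.08, adjusted p = 0.811). S100A4, a motility-linked S100 of mesenchymal and invading cells, read 7.86 and 7.89 in control, 8.43 and 8.44 under SHP2 miR1, and 8.07 and 7.95 under SHP2 miR2. It rose by 0.56 with SHP2 miR1 (SE 0.14, limma adjusted p = 0.0464), while SHP2 miR2 gave 0.13 (adjusted p = 0.781). SHP2 miR2 minus SHP2 miR1 was -0.42 for S100A4 (95% interval -0.75 to -0.10, adjusted p = 0.199). The call was lost whichever 1 of the 6 arrays was left out (0.0624 to 0.194), when centred on array medians (0.0769), with only the compared groups fitted (0.0624) and with a replicate block (0.0517).

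S100A10, S100A11, S100A2 and S100A16 were not called in any comparison of the main fit. S100A10, which binds annexin A2 and links it to membrane channels and plasminogen, read 12.83 and 12.82 in control, 12.44 and 12.51 under SHP2 miR1, and 12.70 and 12.56 under SHP2 miR2. All SHP2 miR arrays were below both controls, at an average of -0.28 (SE 0.13, adjusted p = 0.253). ANXA2, its annexin partner, read 11.08 and 11.14 in control, 10.22 and 10.36 under SHP2 miR1, and 10.73 and 10.74 under SHP2 miR2. ANXA2 fell by 0.60 (SE 0.13, adjusted p = 0.0340), a call lost whichever 1 of the 6 arrays was left out (adjusted p of 0.0651 to 0.264). S100A11, a partner of annexin A1, read 10.09 and 10.25 in control, 10.04 and 10.23 under SHP2 miR1, and 10.16 and 10.13 under SHP2 miR2, with overlapping groups and a 95% interval of -0.33 to 0.27. S100A2 and S100A16, named after their values were seen, also had all SHP2 miR arrays below both controls, with -0.24 and -0.32 (adjusted p = 0.328 and 0.182). With a mean-variance trend in limma, which called more genes in general, the average falls of S100A10, S100A2 and S100A16 passed (adjusted p = 0.000388, 0.0231 and 0.00220). Over all 17 S100A genes, 5 of them dim, 8 differences were above 0 and 9 below, with a median of -0.02.

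With SHP2 miR1 alone, 5 members rose (SPRR1B, LCE1C, LCE1B, S100A9 and S100A4) and LCE3D fell, which makes 6 of 53 (11.3%), against 8.6% of all genes (2.66% higher and 5.94% lower). After centring on array medians 4 rose and 2 fell, and under quantile normalization 5 rose and 0 fell. Both SHP2 miR1 arrays exceeded both controls for 23 members (43.4%, against 30.5% of all genes) and fell below both for 10 (18.9%, against 29%), and 12 members (22.6%, against 28.1%) had an unadjusted p under 0.05. With SHP2 miR2 alone limma called 0 of 53, against 0.37% of all genes (0.19% higher and 0.18% lower). Its arrays did not overlap the controls for 15 members on the higher side (28.3%, against 19.8%) and 8 on the lower (15.1%, against 20.8%). At an unadjusted p under 0.05 there were 10 members (18.9%) with SHP2 miR2, against 11% of all genes. Both comparisons use the same control arrays, so their values for a member are not independent.

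**Figure D3:**
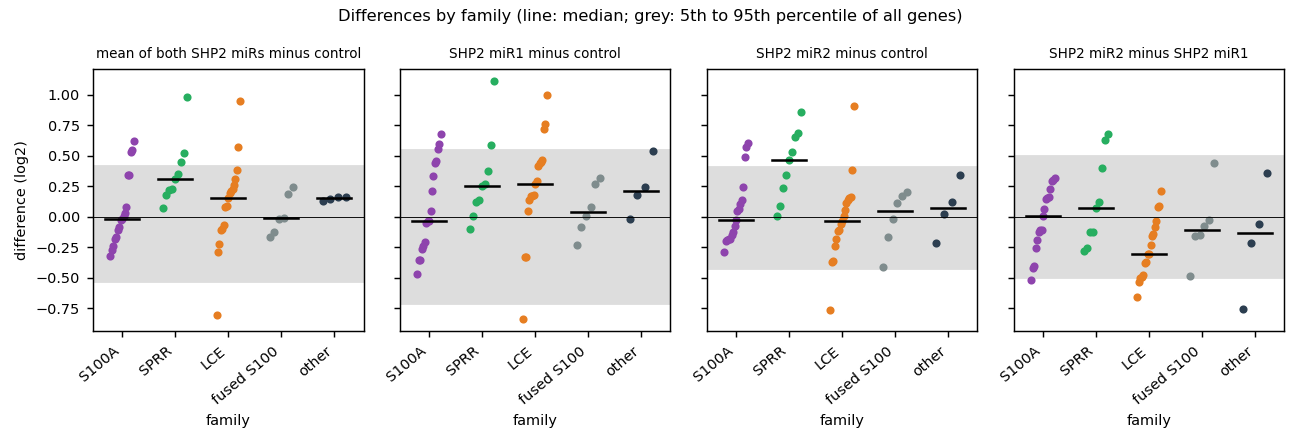
Points give the log2 difference of each member, grouped by family, for the 4 comparisons, with black lines at family medians and grey bands from the 5th to the 95th percentile of all genes. In the average comparison 8 members lie above the band and 1 below it, and the LCE points shift down to a median of -0.30 between the SHP2 miRs.

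The direct comparison of SHP2 miR2 with SHP2 miR1 called 0 of 53 members by limma, against 0.19% of all genes (0.152% higher and 0.0381% lower), and 10 members (18.9%) had an unadjusted p under 0.05, against 17.7% of all genes. LCE values tended to be lower with SHP2 miR2 than with SHP2 miR1. Against control, the LCE median was 0.27 with SHP2 miR1 and -0.03 with SHP2 miR2. The LCE genes resemble one another closely, so counts of them are not counts of independent genes. For SHP2 miR2 minus SHP2 miR1, 14 of 17 LCE genes had a difference below 0, with a median of -0.30, against 49.96% of all genes. After centring on array medians 12 of the 17 were below 0 and the median was -0.22, and that centring moves the median of all genes by 0.09. SHP2 miR2 arrays lay above both SHP2 miR1 arrays for 11 members (20.8%, against 26.4%) and below both for 20 (37.7%, against 25.4%). In 9 LCE genes (52.9%) both SHP2 miR2 arrays lay below both SHP2 miR1 arrays, against 25.4% of all genes. IVL had -0.75 (95% interval -1.36 to -0.15, adjusted p = 0.209).

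**Figure D4:**
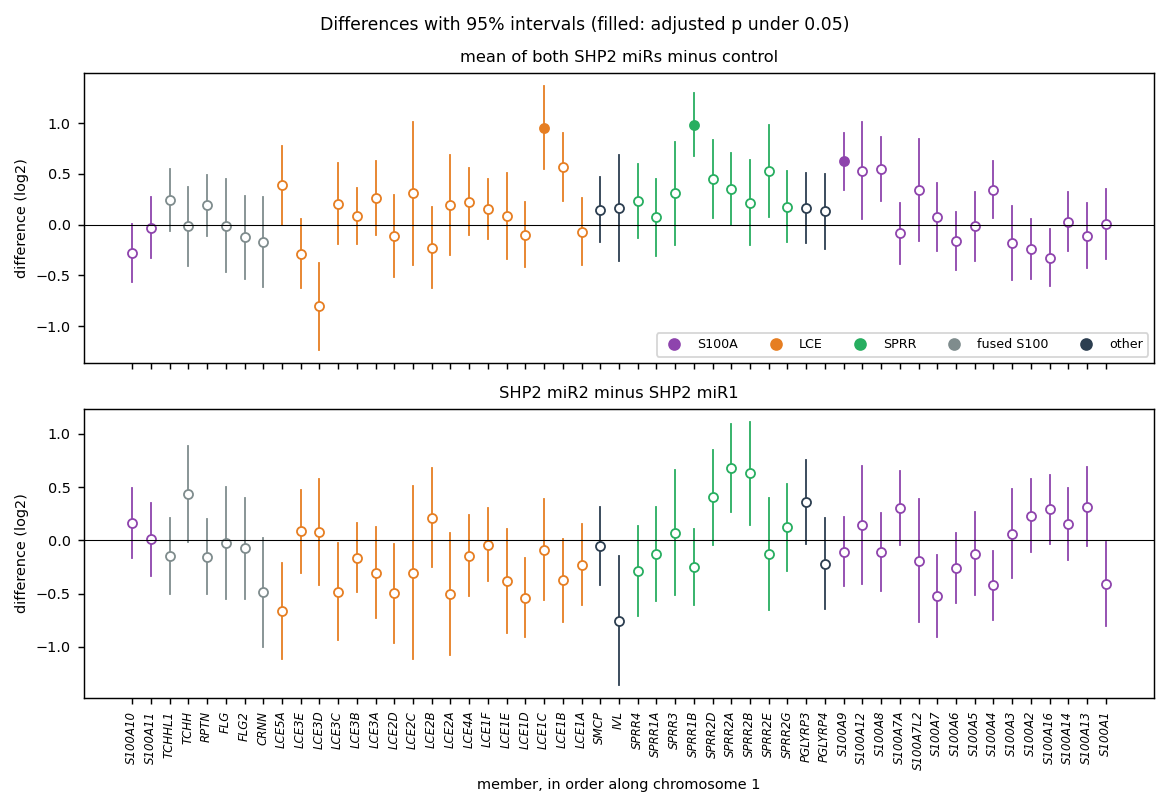
Each point is a member's log2 difference with its 95% interval from the limma fit, in order along chromosome 1 and coloured by family, for the average of both SHP2 miRs against control (top) and SHP2 miR2 against SHP2 miR1 (bottom). Filled points passed the adjusted threshold: these are LCE1C, SPRR1B and S100A9 at the top and 0 at the bottom.

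By position, all 53 members lie on chromosome 1, and 63 protein-coding genes lie between the outermost members in the RefSeq table. Of the 57 of these that were measured, 5 were no members (CRCT1, KPLCE, KPRP, LELP1 and LORICRIN), and limma called 0 of those 5 in any comparison. In the average comparison 1 of them, KPLCE, had an unadjusted p under 0.05. The 3 members called in the average comparison were not adjacent. In the order of members, LCE1C lies between LCE1D, with an average difference of -0.10 (adjusted p = 0.725), and LCE1B, with 0.57 (adjusted p = 0.0690). LCE1C and LCE1B are adjacent and both rose with SHP2 miR1. SPRR1B lies next to SPRR3 and SPRR2D, and S100A9 next to PGLYRP4 and S100A12.

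Genes outside the complex that belong to the same processes were read from lists drawn up with earlier results of these data in view. Among 18 envelope scaffold and cross-linking genes, 2 rose and 1 fell, with a list median of 0.13 against 0.02 for all genes. TGM1, the membrane transglutaminase that cross-links the SPRR and LCE proteins, read 7.37 and 7.18 in control, 8.06 and 8.02 under SHP2 miR1, and 8.19 and 8.02 under SHP2 miR2, and rose by 0.79 (SE 0.13, limma adjusted p = 0.0133). PPL (periplakin), an early envelope scaffold, rose by 0.94 (SE 0.13, adjusted p = 0.00464). TGM2, a more widely expressed transglutaminase, fell by 1.12 (SE 0.13, adjusted p = 0.00247). TGM1 and PPL missed the threshold when either control was left out, at up to 0.165 and 0.0566.

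Of 15 suprabasal keratin and granular layer genes, 2 rose and 1 fell, with a median of 0.11. KRT10 and KRT16 rose by 2.44 and 2.07 (limma adjusted p = 0.000223 and 0.000203), while CASP14, a protease of the granular layer that acts on filaggrin, fell by 1.73 (adjusted p = 0.000629). Of 21 regulators of keratinocyte differentiation, 2 rose and 2 fell, with a median of 0.22. EHF, an epithelial ETS factor, rose by 1.72 (adjusted p = 0.000781), and OVOL1, a repressor that acts as keratinocytes leave the cell cycle, by 0.65 (adjusted p = 0.0316). PRDM1 (BLIMP1), a repressor needed for the granular layer, fell by 2.28 (adjusted p = 0.000209), and the nuclear receptor PPARD by 0.74 (adjusted p = 0.0225). OVOL1 missed the threshold whichever array other than SHP2 miR2 replicate 2 was left out, and PPARD whichever other than SHP2 miR2 replicate 1, at up to 0.275 and 0.137.

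Among 12 barrier lipid genes 0 rose and 2 fell, ELOVL4, which elongates very long fatty acids, by 0.97 (limma adjusted p = 0.00888) and SPTLC2, a subunit of the enzyme that starts ceramide synthesis, by 0.83 (adjusted p = 0.0152). ELOVL4 missed the threshold without control replicate 2 (0.133), and SPTLC2 when either control or SHP2 miR2 replicate 1 was left out (up to 0.195). In the list of partners and receptors of S100 proteins, with 15 genes measured, IL1R1 rose by 1.17 (limma adjusted p = 0.00636) and ANXA2 fell. IL1R1 is the receptor of interleukin-1, and its place in this list does not make it an S100 receptor. IL1R1 missed the threshold without control replicate 1 (0.0669). In the list of outer neighbours and S100 genes outside the complex, 8 were measured and 0 passed in limma. The smallest p-values there were those of S100P, at 0.48 (adjusted p = 0.144), and S100Z, at 0.23 (adjusted p = 0.348).

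**Figure D5:**
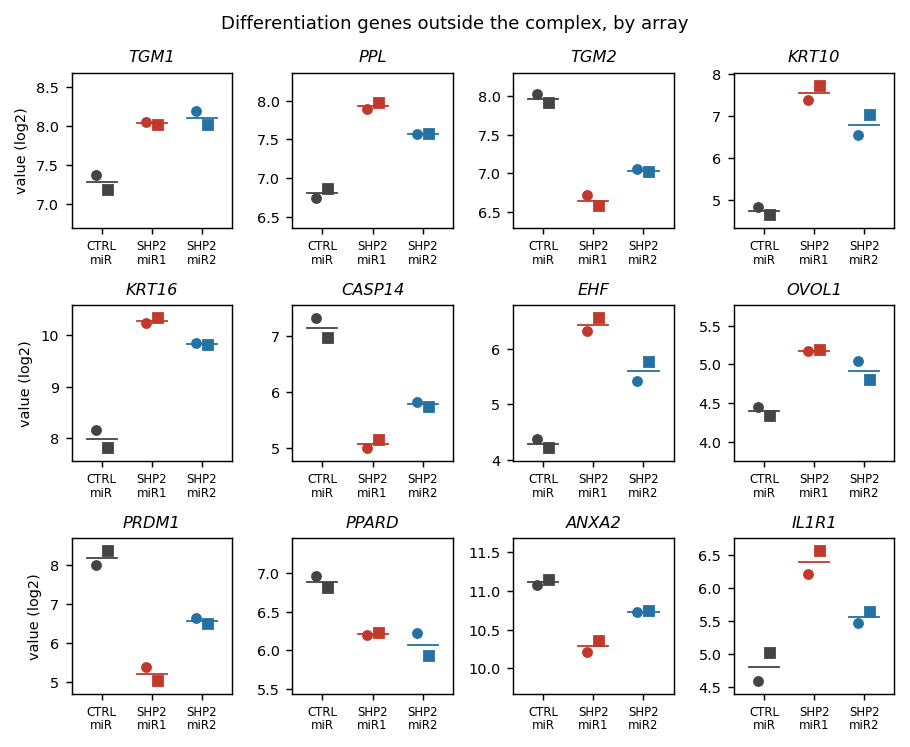
Points give the log2 value on each array of 12 genes outside the complex that passed in the average comparison, with circles for replicate 1, squares for replicate 2 and lines for group means. KRT10, KRT16, EHF, PPL, TGM1, OVOL1 and IL1R1 are higher on the SHP2 miR arrays than on both controls, and TGM2, CASP14, PRDM1, PPARD and ANXA2 are lower.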

How the data were processed

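Deposited log2 values of 28869 probe sets on 6 arrays were used. The submitters' processing notes list R 2.10 and oligo 1.8. How the background was corrected, how arrays were normalized and summarized, and the build: not given in the sources used here. Log base 2 was inferred from the range. In the platform annotation 19310 probe sets had 1 symbol, 1752 several and 7807 none. By gene identifier 19279 matched RefSeq. The probe set with the highest mean was kept per gene, leaving 18377 genes. Of 53 members, 32 were brighter than the 40th percentile of probe sets and 21 were dim; all were tested.

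A model with 3 groups was fitted in limma 3.58.1 (R 4.3.3) with eBayes, 3 residual and 6.1 prior degrees of freedom, two-sided p and Benjamini-Hochberg adjustment over all genes. On simulated data for the average comparison, over 18377 genes, 82% of changes of 1 log2 unit were found. The number of arrays limits precision.

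The members and lists were chosen with earlier results of these data known. Values are given for members past the threshold in any comparison and for 12 fixed genes. From each list up to 4 passing genes, or 2 where none passed, were taken by smallest p. Alternatives were a mean-variance trend, a robust prior, leaving out dim genes, quantile normalization, median centring, averaged probe sets, array weights, fitting only the groups compared, a replicate block, and each array left out in turn, where a lone remaining array is taken to have the spread of the rest. Those for list genes were added after seeing the data.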

Additional observations from a re-analysis of the deposited data

How the results depend on the processing

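The 9 results of members past the threshold kept their direction under all alternatives tried, and kept the call in 94 of 131 cases. Their direction could hardly turn, because the groups did not overlap and many alternatives change only the estimate of spread. For SHP2 miR1, fitting only the groups compared and leaving out either SHP2 miR2 array are the same fit, so the cases are not all separate. The count of members past the threshold was 3 for the average, 6 for SHP2 miR1 and 0 for SHP2 miR2 and for the SHP2 miRs against each other. With a mean-variance trend it was 9 (5 higher, 4 lower), 11 (7 higher, 4 lower), 4 and 1, and the call counts over all genes rose from 771 to 1793 for the average, from 1581 to 2786 for SHP2 miR1, from 68 to 367 for SHP2 miR2 and from 35 to 446 between the SHP2 miRs. With dim genes left out it was 5 (4 higher, 1 lower) for the average and 1 for SHP2 miR2. Leaving out 1 array gave 0 to 2 for the average and 1 to 5 for SHP2 miR1, and 0 for the other comparisons. Over all genes, centring on array medians turned the SHP2 miR1 split from 489 higher and 1092 lower to 378 and 1536. Replicate numbers did not pair the samples clearly (correlation of replicate differences between groups 0.013 to 0.14), and with the replicate block the counts were 4, 5, 0 and 0. Dim members lie close to the floor of the arrays, where differences are compressed.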

Other observations

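The probe set annotated to both HRNR and RPTN, left out because it names 2 genes, read 2.98 and 3.27 in control, 3.44 and 3.56 under SHP2 miR1, and 2.84 and 3.79 under SHP2 miR2, so its groups overlapped at dim values. KPLCE, a gene among the LCE genes that the symbol rule does not take, read 5.74 and 5.42 in control, 5.72 and 6.54 under SHP2 miR1, and 6.19 and 5.95 under SHP2 miR2, with an average difference of 0.52 (limma adjusted p = 0.223).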
